A study of Mus musculus with 8 samples.

Results

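The genes described here code for 8 proteins that hold the sarcomere together and 1 regulator of their splicing: titin (Ttn), nebulette (Nebl), cardiac myosin-binding protein C (Mybpc3), the myomesins Myom1 and Myom2, telethonin (Tcap), α-actinin 2 (Actn2), the LIM domain-binding protein Ldb3 and the splicing regulator Rbm24. They were taken by gene symbol from a table of 23045 genes, and all 9 were found and tested among 20313 genes that averaged 1 or more. RNA-seq of mouse hearts compared 4 WT with 4 Mettl3 KO animals, which asks how the transcriptome differs once Mettl3 is lost in cardiomyocytes. METTL3 is the enzyme that places N6-methyladenosine (m6A) on RNA.

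WT mice were Mettl3lox/lox, so that both copies of Mettl3 were flanked by loxP sites. Mettl3 KO mice were Mettl3lox/lox and also carried αMHC-MerCreMer, a tamoxifen-activated fusion of Cre with parts of the estrogen receptor that the αMHC promoter drives in cardiomyocytes. Per the methods of the study, mice of either genotype were 10 to 16 weeks old and were given tamoxifen, 100 µg per 1 g body weight, on 7 days in a row. Since only the Mettl3 KO mice carried the Cre, its presence and the loss of Mettl3 cannot be told apart. The labels number the hearts without naming the animals, so p-values measure the spread between these 8 samples. Whole-heart RNA also cannot tell fewer cells of a type from less RNA per cell.

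The sarcomere is the contractile unit of striated muscle. Thin actin filaments are anchored in the Z-disc at each end and thick myosin filaments are crosslinked in the M-band at its centre. Titin spans from the Z-disc to the M-band as a molecular spring, and mutations in titin, myosin-binding protein C and several Z-disc proteins are known causes of inherited cardiomyopathy. RBM24 and RBM20 are RNA-binding proteins that direct the splicing of sarcomere transcripts, titin among them, in heart muscle.

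Because METTL3 acts on RNA, the coding sequences were searched for GGACT, the most common form of the motif in which it methylates the adenosine. The search covered the sense strand of the longest coding sequence of each gene in GENCODE M21 transcripts (GRCm38, an earlier build than the mm39 positions given further on), and m6A itself was not measured. Of 14439 genes 76.9% held the motif, with a median of 1.07 per kb. Ttn held 78 in a coding sequence of 105639 bases, 0.74 per kb. Myom1 held 8, Mybpc3 and Actn2 5 each, Myom2 4 and Ldb3 3. The coding sequences of Nebl, Tcap and Rbm24 held 0. Untranslated regions were not searched, although the paper describes m6A as placed mainly in 3' UTRs. Nebl has 3042 coding bases beside 15235 exon bases over all isoforms, and Rbm24 708 beside 3491. A count of 0 in the coding sequence therefore does not mean that a transcript lacks the motif. Densities of the 9 genes ran from 0 to 1.86 per kb. To show the match in each of the 6 transcripts that hold one, the occurrence nearest the stop codon is printed with the motif in capitals. The GRCm38 positions are chr2:76705094-76705118 (minus strand) for Ttn, chr2:91135371-91135395 (plus) for Mybpc3, chr17:71089959-71089983 (plus) for Myom1, chr8:15132787-15132811 (plus) for Myom2, chr13:12269528-12269552 (minus) for Actn2 and chr14:34543995-34544019 (minus) for Ldb3.
Ttn: acaagatggcGGACTttatacccta
Mybpc3: acaaggccctGGACTtctctgaggc
Myom1: ccaatggcgaGGACTtaatgaggca
Myom2: tgacggccgaGGACTcgggcaagta
Actn2: ccggggccctGGACTacactgcctt
Ldb3: gctagcagccGGACTcccctctgtg
All 6 stretches are exonic and coding. The Ttn occurrence lies 70 bases and the Actn2 occurrence 41 bases before the end of the coding sequence, whereas in Myom1 the last GGACT lies 1786 bases before it.

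Values are normalized read counts as deposited, whole numbers that sum to 2839589 to 2916986 per library. Mettl3 averaged 116 ± 12.8 in WT against 72.3 ± 4.65 in Mettl3 KO samples (SD, n = 4), and Esr1, which carries the receptor sequence of the transgene, 16.8 ± 2.87 and 769 ± 67.5, so both genes matched the labels. Of 9 cardiomyocyte marker genes 0 passed the limma test (1, Tnnt2, at an unadjusted p under 0.05), and their summed level was 14912 to 16414 in WT and 15167 to 16991 in Mettl3 KO libraries. Several other marker lists differed in their sums. Atrial markers summed to 2205 to 2405 in WT and 2610 to 3693 in Mettl3 KO hearts, with 6 of 8 higher. The atrial gene Bmp10 was at 0 in all WT libraries, also at 0 in Mettl3 KO replicate 1, and at 195, 158 and 358 in replicates 2, 3 and 4 of that group. Fibroblast markers summed to 3648 to 4172 and 4711 to 5671 (7 of 8 higher), and endothelial markers to 5172 to 5361 and 4466 to 4867 (4 of 8 lower). Smooth muscle and pericyte markers summed to 4502 to 4901 and 4191 to 4496 (1 of 8 lower), but this list did not move 1 way. Its median log2 fold change was 0.03, and several of its genes had positive values that did not pass. Macrophage markers overlapped at 1178 to 1399 and 1218 to 1452. Skeletal muscle markers summed to 225 to 340 and 244 to 375 (1 of 8 tested lower), most of it Acta1, which is also made in heart muscle.

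In the deposited values the sarcomere scaffold transcripts were at nearly the same level in both genotypes. Duplicate removal, described further on, can make changes of Mybpc3, Ttn and Actn2 come out smaller. In the limma fit over all tested genes, 0 of the 9 reached an adjusted p under 0.05, against 7.91% of all tested genes in either direction (4.72% higher and 3.19% lower). Among the 1893 genes whose mean was at least that of Tcap, the lowest of the 9, 18% were called. At an unadjusted p under 0.05 there were 2 of 9, Mybpc3 and Ldb3, against 35.4% of those 1893 genes, and limma-voom likewise gave 0 calls and 2 at the unadjusted threshold. In 0 of the 9 were the values of the genotypes fully separated, against 23.8% of genes at such levels. The mean was higher in Mettl3 KO hearts for 8 of the 9, with Nebl the exception, and the median log2 fold change was 0.06, beside -0.01 for all tested genes. Of the 1893 genes at such levels 48.6% had a positive log2 fold change. The 9 cardiomyocyte markers were higher in 9 of 9 cases, with a median of 0.07. The 95% intervals of the 9 changes together ran from -0.07 to 0.22 on the log2 scale, which is -5.04% to 16.6%. When the libraries were instead scaled to the cardiomyocyte markers, 4 of the 9 had a higher mean and the median of the 9 was -0.004, while that of all genes was -0.07. With an index of the atrial markers as covariate the median of the 9 was instead 0.10, 6 of the 9 were higher and 3 reached an unadjusted p under 0.05, and again 0 were called. The index averages the log2 levels of the 8 atrial markers, of which 6 were called higher in Mettl3 KO hearts. It thus overlaps with genotype, and the fit can take up part of a genotype difference. In that fit Ttn stood at 0.10 (limma adjusted p = 0.213), Actn2 at 0.16 (limma adjusted p = 0.0940) and Ldb3 at 0.18 (limma adjusted p = 0.114). Of the alternatives described further on, undoing duplicate removal called Mybpc3 (0.22, limma adjusted p = 0.0434). Leaving out Mettl3 KO replicate 4 called Ldb3 (0.14, limma adjusted p = 0.0450).

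**Figure D1:**
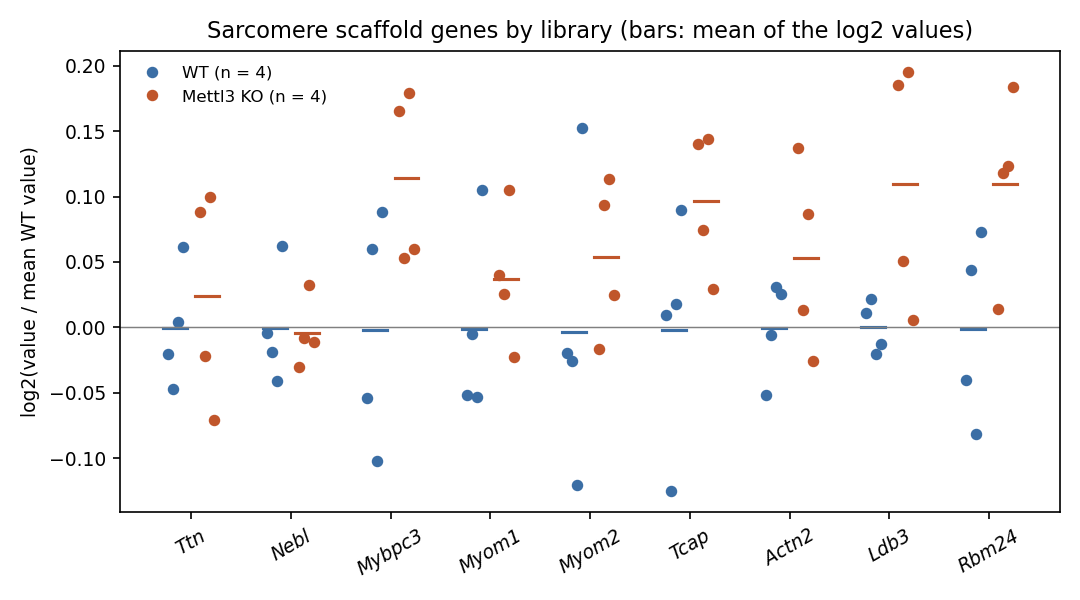
Each point is 1 library (blue, WT; orange, Mettl3 KO; 4 each), placed at the log2 ratio of its normalized read count to the mean WT value of the gene, with a bar at the mean of the 4 log2 ratios. The genotypes overlap for all 9 genes, and the Mettl3 KO bar lies highest above the WT bar for Mybpc3, Ldb3 and Rbm24.

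Titin is by far the most abundant of these transcripts in reads. Ttn (ENSMUSG00000051747, mm39 chr2:76534324-76812891, minus strand) had 70023, 68741, 71213 and 74101 normalized read counts in the WT libraries and 75514, 69946, 76105 and 67610 in the Mettl3 KO libraries. The Mettl3 KO values lay on either side of the WT values, with 2 above and 1 below all of them. The means were 71020 ± 2289 and 72294 ± 4177 (SD, n = 4), and on the log2 scale they differed by 0.02 with an SE of 0.03 (limma adjusted p = 0.747). The 95% interval of the change ran from -2.83% to 6.45%. Titin alone took 2.38% to 2.62% of each library, and the 9 genes together 2.93% to 3.20%. The count covers all exons of the gene, so that short and long titin isoforms are not separated. A lncRNA gene on the other strand, Gm13938, overlaps Ttn over 63933 bases and averaged 9 ± 3.65 in WT against 8 ± 1.41 in Mettl3 KO libraries (SD, n = 4).

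Cardiac myosin-binding protein C sits on the thick filament, where it tunes the interaction of myosin with actin. Mybpc3 (ENSMUSG00000002100, chr2:90948489-90966861, plus strand) had 2611, 2825, 2525 and 2881 in WT hearts, beside 3040, 2812, 3069 and 2826 in Mettl3 KO hearts. Replicates 1 and 3 of the Mettl3 KO group exceeded every WT value, while replicates 2 and 4 lay within the WT range. The means were 2711 ± 170 and 2937 ± 137 (SD, n = 4), and the log2 fold change was 0.12 (SE 0.04, 95% interval 0.03 to 0.20, limma adjusted p = 0.0991). Its unadjusted p of 0.0114 was the lowest of the 9. Scaled to the cardiomyocyte markers, Mybpc3 stood at 0.05 (limma adjusted p = 0.536).

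The myomesins crosslink myosin filaments and titin in the M-band. Myom1 (ENSMUSG00000024049, chr17:71309628-71433851, plus strand) had 3002, 3101, 2999 and 3347 in WT hearts, beside 3200, 3167, 3347 and 3064 in Mettl3 KO hearts, a log2 fold change of 0.04 with an SE of 0.04 (limma adjusted p = 0.644). Myom2 (ENSMUSG00000031461, chr8:15107653-15183541, plus strand) had 3047, 3034, 2841 and 3432 in WT hearts, beside 3054, 3295, 3341 and 3142 in Mettl3 KO hearts, a log2 fold change of 0.06 with an SE of 0.04 (limma adjusted p = 0.537). For both genes WT replicate 4 was the highest WT value and no Mettl3 KO value exceeded it. Scaled to the cardiomyocyte markers, Myom1 stood at -0.023 and Myom2 at -0.0044. With the atrial index as covariate Myom2 stood at -0.056, and with single libraries left out it ran from 0.018 to 0.11. Myom2 varied most among WT hearts of the 9 genes, with a coefficient of variation of 8.02%. Myl12a, on the other strand, overlaps the first 246 bases of Myom1, and the authors counted by strand.

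Of the Z-disc proteins, α-actinin 2 crosslinks the thin filaments, telethonin caps the end of titin, LDB3 (also known as cypher or ZASP) binds α-actinin, and nebulette runs along the thin filament from the Z-disc. Ldb3 (ENSMUSG00000021798, chr14:34248560-34310639, minus strand) had 1628, 1640, 1593 and 1601 in WT hearts, beside 1837, 1673, 1850 and 1622 in Mettl3 KO hearts. The WT values lay close together, with a coefficient of variation of 1.37%, and 3 of the 4 Mettl3 KO values exceeded all of them. The means were 1616 ± 22.2 and 1746 ± 115 (SD, n = 4), and on the log2 scale they differed by 0.11 (SE 0.04, 95% interval 0.02 to 0.20, limma adjusted p = 0.126). Without Mettl3 KO replicate 4, the lowest of its group, the log2 fold change was 0.14 and the limma adjusted p was 0.0450, so that 1 of the 9 genes was then called. Scaled to the cardiomyocyte markers, Ldb3 stood at 0.05 (limma adjusted p = 0.647).

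Tcap (ENSMUSG00000007877, chr11:98274637-98275779, plus strand) had 370, 337, 372 and 391 in WT hearts, beside 405, 387, 406 and 375 in Mettl3 KO hearts. Its log2 fold change was 0.10 with an SE of 0.06 (limma adjusted p = 0.365), and 0.04 when scaled to the cardiomyocyte markers. Actn2 (ENSMUSG00000052374, chr13:12284312-12355641, minus strand) had 1877, 1938, 1988 and 1981 in WT hearts, beside 2140, 1964, 2067 and 1912 in Mettl3 KO hearts, a log2 fold change of 0.05 with an SE of 0.04 (limma adjusted p = 0.497). In both genes Mettl3 KO replicates 1 and 3 lay above all WT values and the other replicates within their range. Nebl (ENSMUSG00000053702, chr2:17348720-17736275, minus strand) had 2270, 2247, 2212 and 2376 in WT hearts, beside 2229, 2263, 2328 and 2259 in Mettl3 KO hearts. All Mettl3 KO values of Nebl fell inside the WT range, and the 95% interval of its change ran from -5.04% to 4.75% (limma adjusted p = 0.975).

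Rbm24 is the only RNA-binding protein among the 9. The gene (ENSMUSG00000038132, chr13:46571910-46584571, plus strand) had 464, 492, 451 and 502 in WT hearts, beside 482, 518, 520 and 542 in Mettl3 KO hearts. Again 3 Mettl3 KO values exceeded all WT values, but here the exception was replicate 1 and the highest was replicate 4. The means were 477 ± 23.8 and 516 ± 24.8 (SD, n = 4), and on the log2 scale they differed by 0.11 (SE 0.05, 95% interval 0.00 to 0.22, limma adjusted p = 0.243). Scaled to the cardiomyocyte markers, Rbm24 stood at 0.05 (limma adjusted p = 0.760), and with the atrial index as covariate the sign turned, at -0.02 (limma adjusted p = 0.933).

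Per kilobase of exon, the order of the levels was the same in both genotypes. In WT hearts Mybpc3 stood at 651 ± 40.8 normalized read counts per kb, Ttn at 608 ± 19.6 and Actn2 at 513 ± 13.4 (SD, n = 4). Tcap followed at 388 ± 23.7, Myom2 at 349 ± 28.0, Myom1 at 298 ± 15.6 and Ldb3 at 265 ± 3.63. Nebl at 149 ± 4.64 and Rbm24 at 137 ± 6.81 were the lowest. Among neighbours in this order, the WT values of Mybpc3 and Ttn overlapped, as did those of Tcap and Myom2. In Mettl3 KO hearts the pairs that overlapped were Myom1 with Ldb3 and Nebl with Rbm24. The large read number of Ttn was thus spread over 116825 exon bases, against 4163 for Mybpc3, and per kb Ttn ranked below it. These lengths join the exons of all annotated isoforms of a gene, so a single transcript can be shorter. Which titin isoforms were present was not measured, so the order of Ttn and Mybpc3 per kb depends on this choice of length.

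These levels per base bear on what the values can show. The authors removed duplicates of single-end reads, so that at most 1 read per start position and strand remained. A gene therefore cannot hold many more reads than it has exon bases, and a change in a gene close to that limit comes out smaller than it was. Of 19546 tested genes with a length, 20 exceeded 0.5 normalized read counts per exon base, and 3 of these were Mybpc3 (0.678), Ttn (0.613) and Actn2 (0.523). They ranked 6, 11 and 15 from the top, while the median gene had 0.0134. Only 1 gene, of 93 bases, exceeded 1 per base, and the next highest stood at 0.772.

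**Figure D2:**
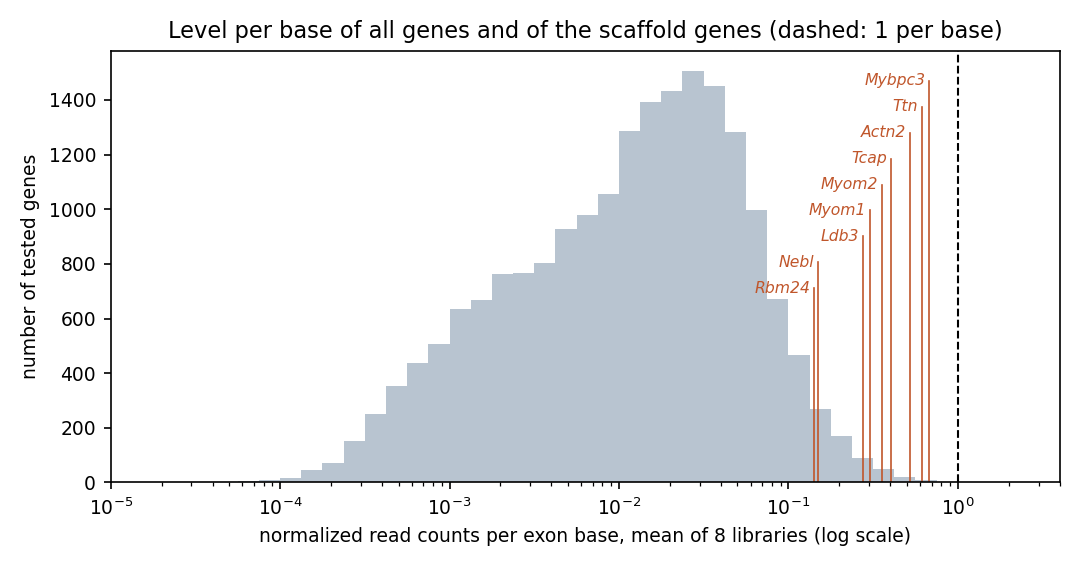
The bars count tested genes by normalized read counts per exon base (log scale, mean of 8 libraries), and the 9 scaffold genes are marked by name. They lie at the upper end of the distribution, from 0.142 for Rbm24 to 0.678 for Mybpc3, against a median of 0.0134, and the dashed line marks 1 per base.

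The size of this compression was estimated by assuming that reads start evenly along a gene and converting each value to the number of reads expected before duplicates were removed. On that scale, which was added after the values were seen, the log2 fold change of Mybpc3 was 0.22 (SE 0.07, limma adjusted p = 0.0434) in place of 0.12, and Mybpc3 alone of the 9 was called. Ttn then had 0.04 (limma adjusted p = 0.739) and Actn2 0.08 (limma adjusted p = 0.384), and the estimates of Ldb3 (0.13) and Rbm24 (0.12) moved little. Real read starts are uneven and the values are normalized, so the conversion is approximate.

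**Figure D3:**
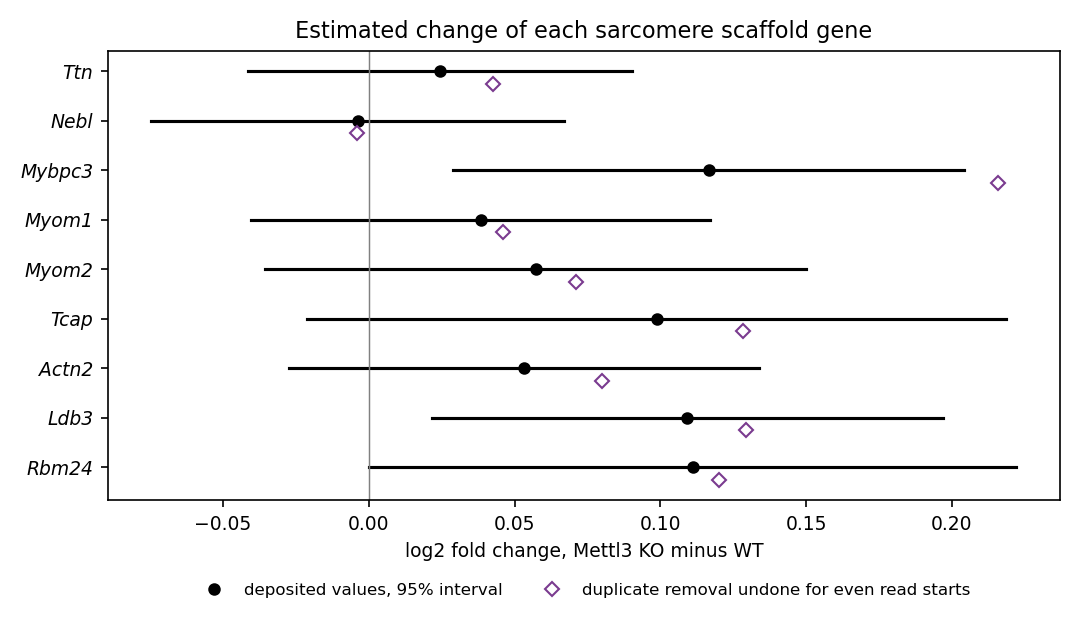
Filled points are log2 fold changes (Mettl3 KO minus WT) from the deposited values with 95% intervals, 4 libraries per genotype, and open diamonds are the estimates after undoing duplicate removal for even read starts. The diamond of Mybpc3 (0.22) lies beyond the interval of the deposited values, which ends at 0.20, and the others lie inside theirs.

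Much of the spread within a genotype was shared among the scaffold genes. In Mettl3 KO hearts replicate 3 was above the group mean for 9 of 9 genes and replicate 1 for 6, while replicate 2 was above it for 2 and replicate 4 only for Rbm24. In WT hearts replicate 4 was above the group mean for 8 of 9, all but Ldb3. The median deviation ran from -4.09% in Mettl3 KO replicate 4 to 5.19% in WT replicate 4. The summed cardiomyocyte markers also put replicates 1 and 3 of the Mettl3 KO group on top and replicate 4 last, with 16991 in replicate 1, 16675 in replicate 3, 15877 in replicate 2 and 15167 in replicate 4, and the highest WT sum, 16414, was also in replicate 4. Mettl3 KO replicates 1 and 3 had the largest library totals as well, at 2916986 and 2902946. The part of these differences between libraries in the results was not tested. Without Mettl3 KO replicate 3 the log2 fold change of Ttn was -0.0009, and 0 of the 9 genes reached an unadjusted p under 0.05. Without WT replicate 4 the mean of all 9 was higher in Mettl3 KO hearts, with a median log2 fold change of 0.105, and 5 of the 9 reached an unadjusted p under 0.05, while 0 were called.

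**Figure D4:**
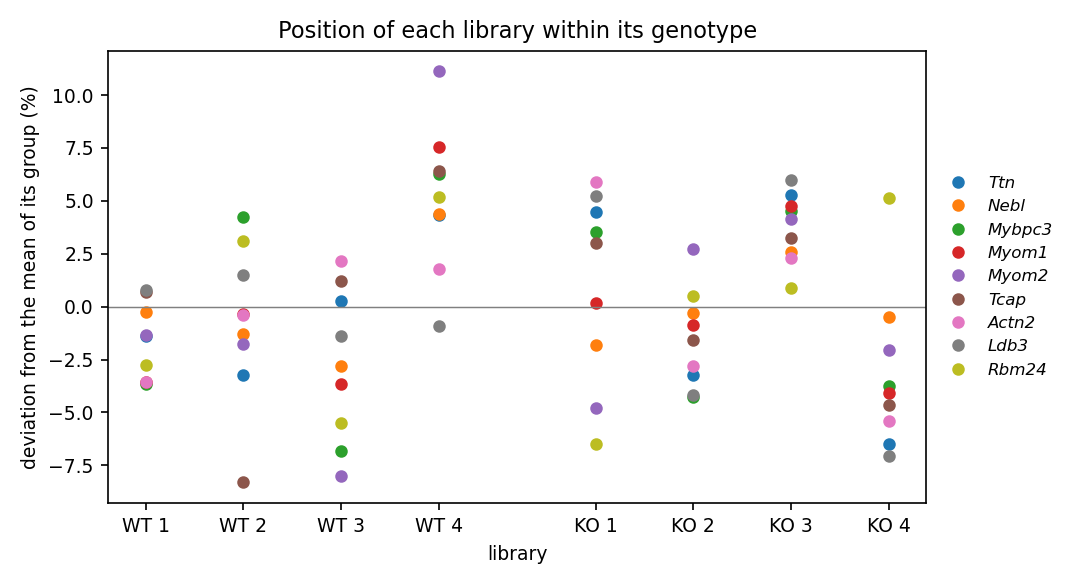
Each point is the deviation of 1 gene from the mean of its genotype, in percent, for each of the 8 libraries. WT 4, KO 1 and KO 3 hold mostly positive deviations and KO 4 mostly negative ones, with Rbm24 (5.14%) the only gene above its group mean in KO 4.

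The profiles of the 9 genes over the 8 libraries were compared by the root mean square difference of mean-centred log2 values. The closest pair was Ttn with Actn2 at 0.0332 and the farthest Ttn with Rbm24 at 0.107. Among 6770 other genes with a mean of at least 100, the gene closest to Myom1 was Tnni3, which codes for cardiac troponin I, at 0.0142. The closest to Ttn was Idh2 (0.0161), to Nebl Ube3a (0.0149), to Mybpc3 Cenpb (0.0250), to Myom2 Akr1b10 (0.0226) and to Tcap Sh3glb1 (0.0223). Actn2 was closest to Diaph1 (0.0133), Ldb3 to Cox7b (0.0264) and Rbm24 to Ltbp1 (0.0228). The candidate of median distance stood at 0.108 to 0.136, and these likenesses describe 8 libraries that share depth and composition.

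Among partners of the M-band and of titin, the cytoskeletal adaptor OBSL1 and the muscle kinase SPEG had lower transcript levels in Mettl3 KO hearts. Obsl1 (chromosome 1) had 487, 517, 492 and 498 in WT hearts, beside 446, 424, 412 and 403 in Mettl3 KO hearts, a log2 fold change of -0.24 with an SE of 0.05 (limma adjusted p = 0.00391). Speg, also on chromosome 1, had 1210, 1218, 1351 and 1236 in WT hearts, beside 1161, 999, 1148 and 1078 in Mettl3 KO hearts, a log2 fold change of -0.19 with an SE of 0.05 (limma adjusted p = 0.0148). The genotypes did not overlap for either gene. Of 13 M-band and titin partners these 2 fell, 0 rose and 11 did not pass, with a median log2 fold change of -0.02. The share called, 15.4%, lay between the 7.91% of all tested genes and the 18% of genes at the levels of the scaffold genes. This list and the partner lists that follow also hold genes below those levels, so the 18% is not matched to them. The call of Speg was lost without WT replicate 3 (limma adjusted p = 0.0618), without Mettl3 KO replicate 2 (0.0808) and without Mettl3 KO replicate 4 (0.0514), each of which left 1 call in the list. With the atrial index as covariate both calls ended, Speg at -0.06 (limma adjusted p = 0.715) and Obsl1 at -0.17 (limma adjusted p = 0.253). The SE of Obsl1 was then 0.08, and since the index overlaps with genotype this fit cannot tell atrial RNA from genotype.

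Of 21 Z-disc partners 3 rose, 0 fell and 18 did not pass, with a median log2 fold change of 0.05. This share of 14.3% was again between the 7.91% of all tested genes and the 18% of genes at scaffold levels. Pdlim3 (chr8:46338498-46372585, plus strand), which codes for an α-actinin-associated LIM protein, had 97, 96, 102 and 97 in WT hearts, beside 113, 155, 197 and 185 in Mettl3 KO hearts. All Mettl3 KO values were above all WT values, and the log2 fold change was 0.69 with an SE of 0.12 (limma adjusted p = 7.96e-04). Mettl3 KO replicate 1, the lowest of its group for Pdlim3, was also the library with the lowest atrial marker sum of that group (2610, against 3163 to 3693 in the others). In that library Pdlim3, at 113, was still above every WT value. Its Bmp10 was at 0, as in the WT libraries, and its atrial marker sum was above the highest WT sum of 2405. Within that list Pam (1840, against 1463 to 1539 in WT) and Dkk3 (132, against 36 to 84) lay above all WT values. Myl7 (23), Sln (10) and Myl4 (113) lay within the WT range, and Stard10 (54) and Kcnj3 (438) below it. With the atrial index as covariate the log2 fold change of Pdlim3 was 0.30 (limma adjusted p = 0.367). The part of the higher atrial and fibroblast marker sums in the values of Pdlim3 was not tested.

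Flnc, which codes for the actin crosslinker filamin C, had 1562, 1623, 1753 and 1588 in WT hearts, beside 1990, 1815, 1979 and 1803 in Mettl3 KO hearts, a log2 fold change of 0.22 with an SE of 0.04 (limma adjusted p = 0.00235). Jph2, which codes for junctophilin 2 and joins the plasma membrane to the sarcoplasmic reticulum near the Z-disc, had 719, 790, 746 and 754 in WT hearts, beside 843, 831, 892 and 814 in Mettl3 KO hearts, a log2 fold change of 0.17 with an SE of 0.05 (limma adjusted p = 0.0241). Both were separated between the genotypes. The call of Jph2 was lost without WT replicate 1 (limma adjusted p = 0.0936), 3 (0.0530) or 4 (0.0541) and without Mettl3 KO replicate 2 (0.0504) or 3 (0.106). Scaling to the cardiomyocyte markers left Pdlim3 as the only call of the 21, with Flnc at 0.16 (limma adjusted p = 0.0839) and Jph2 at 0.11 (limma adjusted p = 0.318). With the atrial index as covariate the list also held 3 calls, but these were Flnc (0.35, limma adjusted p = 4.19e-04), Synpo2 and Bag3, and Jph2 stood at 0.17 (limma adjusted p = 0.185).

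Of 15 genes for proteins that build the sarcomere or set the ends of its thin filaments, 3 rose, 2 fell and 10 did not pass, with a median log2 fold change of 0.04. These 5 calls are 33.3% of the list, beside 7.91% of all tested genes and 18% of genes at the levels of the scaffold genes. The 18% is for genes with a mean at least that of Tcap, and of the 5 called genes Tmod4 and Klhl40 lay below that level. The leiomodins lengthen thin filaments at their pointed ends. Lmod3 had 392, 427, 403 and 428 in WT hearts, beside 492, 477, 529 and 501 in Mettl3 KO hearts, a log2 fold change of 0.28 with an SE of 0.05 (limma adjusted p = 0.00173). Lmod2, the main cardiac form, had 882, 935, 897 and 993 in WT hearts, beside 1099, 1051, 1110 and 990 in Mettl3 KO hearts, a log2 fold change of 0.20 with an SE of 0.05 (limma adjusted p = 0.0109), with 1 Mettl3 KO value inside the WT range. Klhl31, a Kelch-like protein of striated muscle, had 968, 1093, 1094 and 1059 in WT hearts, beside 1154, 1230, 1293 and 1196 in Mettl3 KO hearts, a log2 fold change of 0.21 with an SE of 0.05 (limma adjusted p = 0.00572).

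The genes that fell in this group were Tmod4 and Klhl40, which are both known mainly from skeletal muscle. Tmod4 (chr3:95031787-95036520, plus strand), a tropomodulin that caps thin filaments, had 78, 76, 83 and 90 in WT hearts, beside 38, 49, 53 and 40 in Mettl3 KO hearts. Its means were 81.8 ± 6.24 and 45 ± 7.16 (SD, n = 4), and on the log2 scale they differed by -0.86 with an SE of 0.13 (limma adjusted p = 1.56e-04). Klhl40, which stabilises LMOD3 in skeletal muscle, had 104, 88, 96 and 73 in WT hearts, beside 71, 59, 69 and 66 in Mettl3 KO hearts, a log2 fold change of -0.43 with an SE of 0.12 (limma adjusted p = 0.0256). In both cases all Mettl3 KO values were below all WT values. Skeletal muscle markers other than Acta1 were low throughout, and of these Tnni2, a fast skeletal troponin I, had 6, 5, 7 and 2 in WT against 1, 0, 2 and 1 in Mettl3 KO libraries (limma adjusted p = 0.0381). It was the only marker of this list that was called, and the list did not move 1 way. Myh2 (0.29), Myh4 (0.31) and Acta1 (0.28) had positive log2 fold changes that did not pass. Other markers of the list had negative ones that did not pass either, and the median of the list was -0.12. The part of skeletal muscle RNA in the values of Tmod4 and Klhl40 was not tested. The call of Klhl40 was lost without WT replicate 1 (limma adjusted p = 0.110), 2 (0.0596) or 3 (0.0707) and without Mettl3 KO replicate 2 (0.0943), 3 (0.0553) or 4 (0.0644), and that of Lmod2 without WT replicate 1 (0.0523) or Mettl3 KO replicate 3 (0.0613). With WT replicate 1 or Mettl3 KO replicate 3 left out, 3 genes of the list were called. With the atrial index as covariate only Tmod4 of the 15 was called, with Lmod3 at 0.24 (limma adjusted p = 0.103), Klhl31 at 0.20 (0.124), Lmod2 at 0.24 (0.0622) and Klhl40 at -0.32 (0.417). Scaling to the cardiomyocyte markers ended the calls of Klhl31 (0.15, limma adjusted p = 0.152) and Lmod2 (0.14, limma adjusted p = 0.119).

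**Figure D5:**
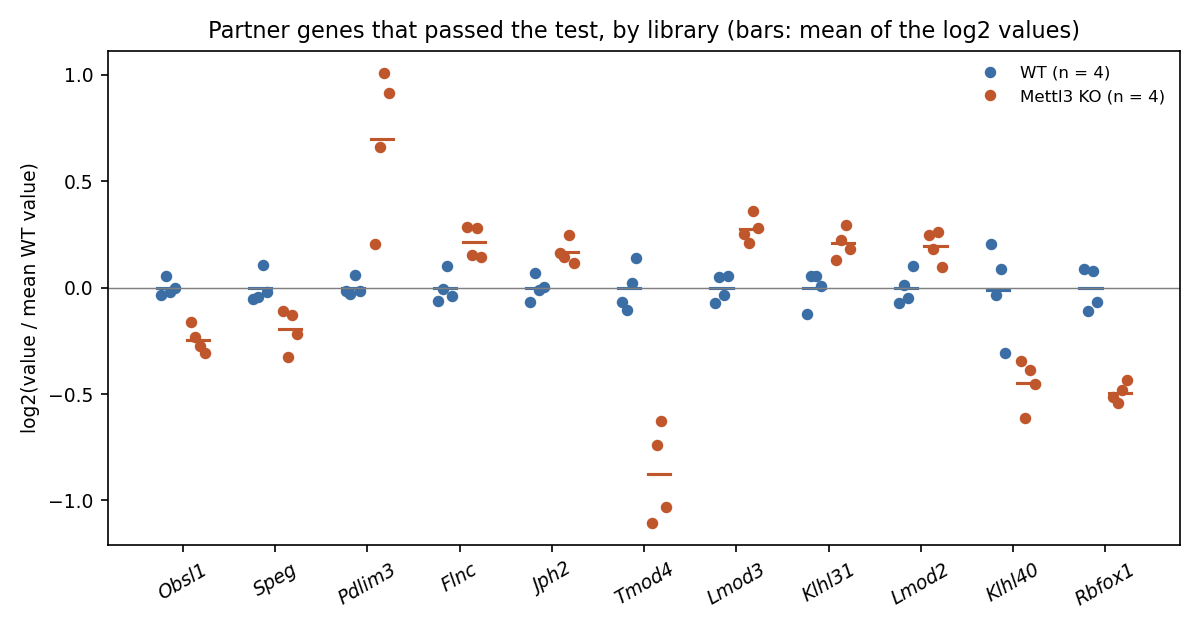
Log2 ratios to the mean WT value for the 11 partner genes with a limma adjusted p under 0.05, 1 point per library (blue, WT; orange, Mettl3 KO; 4 each) with bars at the mean of the log2 ratios. Tmod4 (-0.86) and Pdlim3 (0.69) show the largest differences, and Lmod2 is the only one of the 11 whose genotypes overlap.

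Among 15 regulators that splice sarcomere transcripts 1 fell, 0 rose and 14 did not pass, with a median log2 fold change of -0.02. At 6.67% the share called was below the 7.91% of all tested genes and the 18% of genes at scaffold levels. Rbfox1 (chr16:5703219-7229390, plus strand), a splicing factor of neurons and muscle, had 313, 273, 311 and 281 in WT hearts, beside 206, 202, 211 and 218 in Mettl3 KO hearts. The genotypes were well separated, and the log2 fold change was -0.49 with an SE of 0.07 (limma adjusted p = 4.19e-05). Rbfox1 was called with any single library left out. Its relative Rbfox2 stood at 801 ± 11.6 and 785 ± 21.5 (SD, n = 4, limma adjusted p = 0.780). Rbm20, the regulator of titin isoform choice, had 1457, 1505, 1508 and 1537 in WT hearts, beside 1480, 1473, 1552 and 1540 in Mettl3 KO hearts, a log2 fold change of 0.01 with a 95% interval from -0.07 to 0.09 (limma adjusted p = 0.935).

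Of 11 paralogues of the scaffold genes, 10 were tested, and 0 of these passed in the limma fit, with 1 at an unadjusted p under 0.05 and 0 by limma-voom, beside 7.91% of all tested genes called. The non-muscle α-actinins Actn1 and Actn4 had 250 ± 20.4 and 518 ± 28.4 in WT, against 274 ± 10.4 and 507 ± 21.7 in Mettl3 KO samples (SD, n = 4). The skeletal α-actinin Actn3 and skeletal Mybpc1 had at most 3 normalized read counts in any library. Mybphl, a myosin-binding protein of the atria, had 11, 8, 1 and 9 in WT hearts, beside 3, 41, 41 and 71 in Mettl3 KO hearts, the same libraries as Bmp10 holding its high values (log2 fold change 1.97, SE 0.63, limma adjusted p = 0.0575). Without Mettl3 KO replicate 1 Mybphl was called at 2.88 (limma adjusted p = 1.37e-04), and with the atrial index as covariate it was called in the other direction, at -1.52 (limma adjusted p = 0.0316). Neb, the skeletal relative of nebulette, had 186, 195, 279 and 239 in WT hearts, beside 300, 349, 166 and 320 in Mettl3 KO hearts, a log2 fold change of 0.30 with an SE of 0.16 (limma adjusted p = 0.297). Leaving out Mettl3 KO replicate 3, Neb was called at 0.54 (limma adjusted p = 0.00750).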

How the data were processed

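The data are 8 stranded, single-end libraries of total RNA, 1 per mouse heart. Per the labels and the methods of the study, the authors trimmed reads (Trimmomatic 0.39), aligned them to mm39 (STAR 2.7.11a), removed duplicates (Picard 3.1.1) and multi-mapping, ribosomal and mitochondrial reads, counted reads on exons by strand (featureCounts 2.0.4), leaving out those that overlap several genes, and normalized with DESeq2 1.36.0. The deposited values are a score: normalized read counts rounded to whole numbers, not raw counts.

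The fit took the 20313 genes that averaged 1 or more (2732 did not), on the scale log2(value + 1), with limma 3.58.1 (R 4.3.3, trend, genotype alone as term) and two-sided p adjusted by Benjamini-Hochberg. Fold changes on this scale understate changes of low genes. Tested on simulated data, the fit recovered 52.0% of genes (mean at least 100) changed by 0.25 on the log2 scale and 100% changed by 1. The simulation changed 200 genes and gave every gene the same dispersion of 0.001, so recovery in the real data can differ. Exon lengths came from GENCODE M21 (GRCm38) and count each exon base of a gene once over all its annotated isoforms. Named were the 9 genes, Mettl3, Esr1, called genes of 5 partner lists, the nearest profile of each of the 9 genes and overlapping genes. An item under this rule is not reported here, and its list was counted without it. Other genes (Bmp10, Pam, Dkk3, Myl7, Sln, Myl4, Stard10, Kcnj3, Tnnt2, Acta1, Tnni2, Myh2, Myh4, Cmya5, Synpo2, Bag3, Mybpc2, Mybphl, Neb, Rbm20, Rbfox2, the actinins, Mybpc1) were named after their values were seen. Members and lists were chosen with earlier results of these data known. Alternatives were other scalings, filters, pseudocounts, limma-voom, robust moderation, an atrial index, the replicate block, each library left out and, added after seeing the data, undone duplicate removal.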

Additional observations from a re-analysis of the deposited data

Results flagged for a closer look

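Pdlim3 was the 1 gene with a library far from the others of its group: WT replicate 3 had 102 normalized read counts and the other 3 WT libraries 96 to 97, so that the gap took 0.833 of the range. The search covered 22 genes in both genotypes, 44 groups of 4, and chance alone marks about 1 group in 20, or 2.2 here. The gap amounts to few reads and lies below every Mettl3 KO value of Pdlim3.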

How the results depend on the processing

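The labels do not say whether replicate numbers pair the hearts. Same-numbered libraries deviated together with correlations of 0.116, 0.0241, -0.125 and 0.165 for replicates 1 to 4. With libraries of other numbers these ran from -0.0569 to -0.0476, -0.0995 to 0.0749, -0.171 to 0.271 and -0.316 to 0.156. Replicates 1 and 4 thus lay above that range and replicates 2 and 3 within it. With the number as a block 1346 genes were called (1304 of the 1607 of the fit without it) and 0 of the 9 scaffold genes. With an atrial index as covariate 891 genes were called, 581 shared, and the partner lists held 1 call (M-band, Cmya5), 1 call (assembly, Tmod4), 3 calls (Z-disc: Flnc, Synpo2, Bag3) and 2 calls (paralogues, Mybpc2 at -1.24 and Mybphl at -1.52, lower where it was higher), with log2 fold changes of -0.056 for Myom2 and -0.021 for Rbm24, signs opposite to those reported. Scaling to cardiomyocyte markers left 39.7% of calls higher, against 59.6%, with 1 Z-disc call and 3 assembly calls, and turned Ttn (-0.037), Myom1 (-0.023), Myom2 (-0.0044) and Actn2 (-0.0083). Trimmed mean scaling turned Nebl (0.00056). Paralogues had 1 call without a filter on low values and 1 with a pseudocount of 5. Undoing duplicate removal called 1 of the 9, Mybpc3 (0.22). The cause of these shifts was not tested. Leaving out each library gave 1019 (Mettl3 KO replicate 3) to 1596 calls over all genes, 0 to 1 among the 9, 1 to 3 M-band, 2 to 3 Z-disc, 3 to 5 assembly and 0 to 1 paralogue calls. Log2 fold changes then ran from -0.00092 to 0.056 for Ttn, -0.017 to 0.017 for Nebl, 0.016 to 0.074 for Myom1, 0.018 to 0.11 for Myom2, 0.025 to 0.079 for Actn2, 0.058 to 0.13 for Tcap and 0.081 to 0.14 for Ldb3. All other estimates of the 9 genes kept their direction and stayed past or short of the threshold as reported. At this depth and with 4 libraries each, estimates smaller than the distance to either end of their interval could not pass even without adjustment. Calls used the adjusted p, so larger changes could be missed as well. In the main fit Mybpc3 (0.12, interval 0.03 to 0.20) and Ldb3 (0.11, interval 0.02 to 0.20) exceeded that distance. Neither was called there. The smallest called change among genes with a mean at least that of Tcap was 0.13.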

Other observations

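Across the 9 scaffold genes, 28 of the 36 Mettl3 KO values lay above the mean of the 4 WT values of the same gene. The 36 values come from 4 hearts and are not independent, and the Mettl3 KO libraries with the highest values, replicates 1 and 3, also had the highest totals.

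Among the genes with a mean at least that of Tcap, the median absolute log2 fold change of called genes was 0.23 and the smallest 0.13. The estimates of all 9 scaffold genes in the main fit, up to 0.12, were below that smallest called change. This largely follows from none of them being called. Of genes at such levels 68.9% had an absolute log2 fold change under that of Mybpc3, the largest of the 9. With duplicate removal undone Mybpc3 stood at 0.22, and without Mettl3 KO replicate 4 Ldb3 stood at 0.14, and each was then called.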
